A study of Homo sapiens with 6 samples.

Results

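The replication-dependent histone genes on the short arm of chromosome 6, at 6p22, were examined through the DNA contacts of their 3 gene clusters. The members were chosen by position and by being listed: a loop belonged when either of its anchors overlapped chr6:26000000-26300000 (the first window), chr6:27090000-27300000 (the second) or chr6:27700000-27900000 (the third), in hg19. A loop is a pair of genomic intervals, its anchors, joined by at least 1 paired-end tag (PET), a sequenced read pair with 1 end in each anchor. Over all libraries 3672 of the 736589 listed loops were members. They numbered 528 of 46677 and 494 of 44104 in the H3K27ac libraries of day 0, 908 of 162010 and 871 of 162167 in those of day 3, and 429 of 157578 and 442 of 164053 in the ARID1A libraries. Since a loop without a PET is not listed, the listing itself used the readout. The region was also selected from earlier results of these data, in which a day 0 anchor around chr6:26180088-26239704 had no day 3 counterpart and the loop joining chr6:27771845-27811500 to chr6:27847213-27866332 was low for ARID1A. Values for those items are given below as descriptions.

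Replication-dependent histone genes encode the core histones H2A, H2B, H3 and H4 and the linker histone H1, which package newly copied DNA. They are transcribed mainly in S phase, and their transcripts end in a stem-loop in place of a poly(A) tail. Their clusters gather at the histone locus body, a nuclear body that holds NPAT, a coactivator of histone transcription, and the factors that process histone transcripts.

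The data were HiChIP, which joins DNA ends that lie close together in the nucleus and then enriches the joined pairs by immunoprecipitation of a chromatin protein or mark. All 6 libraries came from G401, an established human cell line from a rhabdoid tumour without functional SMARCB1, part of the core of SWI/SNF, which remodels chromatin, in a stable derivative that carries an inducible SMARCB1 and grows in Tet-free serum. The 3 groups of 2 libraries were H3K27ac, a mark of active promoters and enhancers, at day 0 (genotype SMARCB1 -/-, no doxycycline), H3K27ac at day 3 (SMARCB1 +/+, doxycycline at 1 μg/ml) and, under the same treatment, ARID1A, which belongs to SWI/SNF, at day 3. SMARCB1, doxycycline and days in culture changed together between day 0 and day 3 and cannot be told apart. The labels do not call the replicates separate cultures, so p-values measure only how far 2 libraries lay from each other, possibly for technical reasons.

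The total was 301703 and 253502 PETs for the day 0 libraries, 929128 and 982141 for H3K27ac on day 3 and 435210 and 467487 for ARID1A. The anchors listed also differed in number: 8663 covering 63.4 Mb at day 0, 17421 covering 131 Mb at day 3 and 26762 covering 203 Mb for ARID1A. A share of all PETs therefore sets the windows against unequal lengths of genome. In a population of cells, a contact held in fewer cells and a weaker contact in each cell cannot be told apart. The files name no genes, so the label of the region rests on position.

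The RefSeq tables for GRCh38.p14 show what the 3 clusters hold, by name and order only, because their positions belong to another build than the loops. They list 55 protein-coding histone genes here. A pair, H2AC1 and H2BC1, comes first and lies apart. The first cluster follows with 32 genes, from H1-1 to H4C8: 5 for H1, 4 for H2A, 8 for H2B, 7 for H3 and 8 for H4. HFE, a gene of iron uptake, is the 1 other protein-coding gene inside it. The second cluster has 5 genes (H2BC11, H2AC11, H2BC12, H4C9 and H2AC12) and none for H1 or H3. The third has 16, from H2BC13 to H2BC17: 1 for H1, 5 for H2A, 4 for H2B, 3 for H3 and 3 for H4. Between the first and the second cluster lie 9 protein-coding genes, 6 of them butyrophilin genes such as BTN3A1, and 47 tRNA genes. Between the second and the third lie 5 protein-coding genes, among them PRSS16 and ZNF184, and 51 tRNA genes. The genes were not placed under single anchors. A histone anchor below is therefore one that overlaps a window, whether or not it covers a histone gene.

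Promoters are shown because the mark and the SWI/SNF subunit profiled here are read at such sequences, and because they make plain what the classes share and do not. RefSeq gave a promoter for 50 of the 55 genes; the 200 bases before the start of 4 genes of the third cluster, picked for holding most of the motifs in their class, are printed 5′ to 3′ with GRCh38.p14 positions. Capitals mark CCAAT, the TATA box TATAAA and the octamer ATTTGCAT, on either strand.
H2AC17, chr6:27893186-27893385, minus strand: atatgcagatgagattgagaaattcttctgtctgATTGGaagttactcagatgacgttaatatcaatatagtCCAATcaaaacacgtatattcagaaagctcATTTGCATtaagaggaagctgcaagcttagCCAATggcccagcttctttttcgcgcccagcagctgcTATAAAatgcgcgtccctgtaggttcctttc
H3C10, chr6:27809851-27810050, plus strand: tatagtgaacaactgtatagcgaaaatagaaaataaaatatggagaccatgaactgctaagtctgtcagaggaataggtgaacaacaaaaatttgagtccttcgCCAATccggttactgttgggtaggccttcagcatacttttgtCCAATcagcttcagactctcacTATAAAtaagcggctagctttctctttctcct
H4C13, chr6:27873535-27873734, minus strand: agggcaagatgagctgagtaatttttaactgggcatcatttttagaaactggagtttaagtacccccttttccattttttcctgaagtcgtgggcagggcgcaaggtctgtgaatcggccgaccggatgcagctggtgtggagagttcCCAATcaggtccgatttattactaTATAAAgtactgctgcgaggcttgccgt
H1-5, chr6:27867589-27867788, minus strand: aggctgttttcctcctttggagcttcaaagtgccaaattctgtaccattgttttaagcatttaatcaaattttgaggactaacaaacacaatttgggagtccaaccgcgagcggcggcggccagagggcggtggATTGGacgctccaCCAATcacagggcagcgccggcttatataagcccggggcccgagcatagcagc
H2AC17 carried the octamer 98 bases and the TATA box 31 bases before its start. H3C10 and H4C13 had a TATA box 32 and 28 bases before theirs and no octamer in this stretch. H1-5 had CCAAT on both strands and neither of the other motifs. Over the 250 bases before the start, TATAAA on either strand was found in 66% of the 50 histone promoters and in 11.1% of all 27305 promoters in the table. CCAAT was found in 86% against 33%, and the octamer in 44% against 1.66%. The octamer was held by 9 of 11 H2A and 12 of 15 H2B promoters, 1 of 8 H3 promoters and none of 10 H4 or 6 H1 promoters. CCAAT was in every H1, H2A, H2B and H3 promoter matched and in 3 of 10 for H4. H2A and H2B promoters are not independent: 9 pairs of neighbouring H2A and H2B genes point away from each other, and such pairs share sequence. A match is a run of letters and not a bound site.

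Contacts of the histone windows made up 1.73% of all PETs in both day 0 libraries. The share was 0.736% and 0.710% in the H3K27ac libraries of day 3, and 0.263% and 0.256% in the ARID1A libraries. The means were 1.73% ± 0.0015 (SD, n = 2) at day 0, 0.723% ± 0.019 (SD, n = 2) at day 3 and 0.259% ± 0.0051 (SD, n = 2) for ARID1A. The groups did not overlap in either comparison, by a ratio of 2.39 between day 0 and day 3 and of 2.79 between H3K27ac and ARID1A. These shares include the contacts by which the region was selected and carry no test. Member loops held 9.87 and 8.87 PETs each at day 0, against 6.46 and 5.75 for all loops of those libraries. At day 3 they held 7.54 and 8.01 against 5.74 and 6.06, and with ARID1A 2.67 and 2.71 against 2.76 and 2.85.

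The windows did not move alike. PETs with an end in the first window fell from 1.27% and 1.26% of the library at day 0 to 0.269% and 0.244% at day 3. Those in the third window fell from 0.548% and 0.569% to 0.367% and 0.355%. In the second window the values overlapped, at 0.262% and 0.275% at day 0 and 0.266% and 0.261% at day 3 (exact two-sided permutation p = 0.667, n = 2 against 2, where the smallest possible is 0.333). Contacts inside the first window showed the widest gap, 0.817% and 0.789% at day 0 against 0.110% and 0.105% at day 3. Contacts inside the second were higher at day 3, at 0.0520% and 0.0560% against 0.0229% and 0.0189%. For ARID1A the shares were 0.0448% and 0.0483% inside the first window, 0.0377% and 0.0338% inside the second, and 0.00345% and 0.00428% inside the third, where day 3 H3K27ac had 0.125% and 0.124%.

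**Figure D1:**
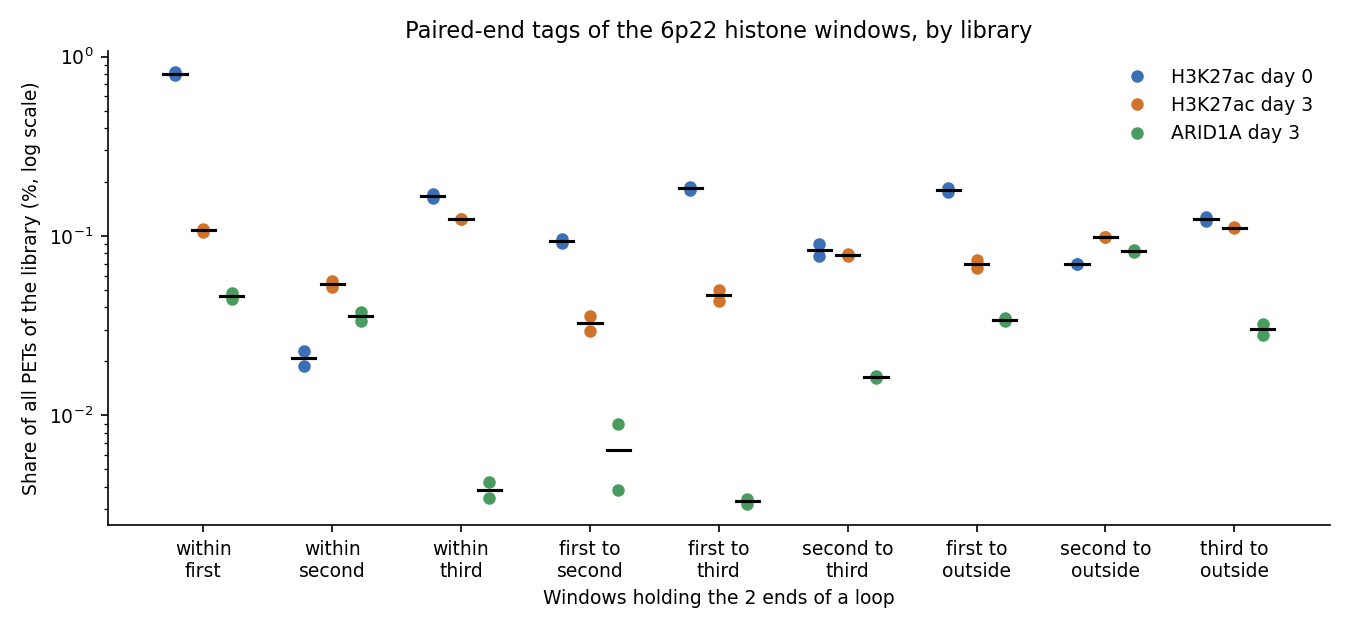
Share of all PETs of a library (percent, log scale) by the windows that hold the 2 ends of a loop; points are single libraries and black bars are means of 2. Day 0 H3K27ac is highest inside the first window (mean 0.803%), while inside the second window both day 3 groups lie above day 0 (mean 0.0209%).

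Anchors showed which stretches carried these contacts. At day 0 the deposited files placed 12 anchors in the first window, 5 in the second and 5 in the third. At day 3 H3K27ac had 8, 8 and 6, and ARID1A had 11, 9 and 5. Anchors covered 56.7% of the first window at day 0 and 35.2% at day 3. They covered 21.3% and 36.1% of the second, and 32.5% and 40.6% of the third. Of the 22 day 0 anchors, 16 (72.7%) overlapped a day 3 H3K27ac anchor, against 91.0% of all 8663 day 0 anchors, and 17 (77.3%) an ARID1A anchor, against 79.4% of all.

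Merging overlapping anchors of all libraries gave 27 consensus anchors in the windows. PETs with both ends inside the same consensus anchor are not in its count. All 27 had 10 or more PETs in at least 2 libraries. They are named here by window and by the distance in kb of their start from the window's start, and levels are in CPM, the PETs of an anchor or loop scaled to a library of 1000000 PETs. Anchors were called at 20 of them in day 0 H3K27ac, 21 in day 3 H3K27ac and 22 in ARID1A, and 13 were called in all 3 groups. An anchor that was not called in a group had no value there, which is not a measured 0.

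Within the first window, the day 0 signal centred on anchors that had no day 3 anchor. The 180 kb anchor, chr6:26180088-26239704, joins 3 day 0 anchors and stood at 5943 and 5921 at day 0; no H3K27ac anchor was called there at day 3, and ARID1A had 427 and 419. One of those 3, chr6:26182170-26210151, ranked 3 of 8594 and 2 of 8558 anchors by PETs over the genome. The 20 kb anchor, chr6:26019666-26059153, stood at 3053 and 2994, again without a day 3 H3K27ac anchor, and at 85.0 and 107 for ARID1A. These stretches held most of the day 0 contacts of the window. In all, 56.6% and 56.1% of the day 0 member PETs touched an anchor that no day 3 H3K27ac anchor overlapped, and 83.0% and 83.4% of those inside the first window did, against 18.3% and 18.0% of all day 0 PETs. The 180 kb anchor was part of the choice of the region, so these shares are a description. The 59 kb anchor of the first window and the 127 kb anchor of the second were the other day 0 anchors without a day 3 counterpart.

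The remaining large anchors of the first window were called at both times. The 260 kb anchor, chr6:26260407-26288830, had 2599 and 2465 at day 0, 1131 and 982 at day 3, and 202 and 201 with ARID1A. The 116 kb anchor, chr6:26116474-26134888, had 1637 and 1625 at day 0 and 633 and 609 at day 3, with none called for ARID1A. The 242 kb anchor, chr6:26241679-26257550, had 1422 and 1377, then 622 and 534, and 66.6 and 87.7 with ARID1A. At the 153 kb anchor, chr6:26153457-26164069, the levels were 1209.8 and 1195, then 489.7 and 461, and 108 and 81.3 with ARID1A. At each of these 4 the day 0 libraries were above both day 3 libraries, but the share of all anchors with that order was not counted. The order is therefore not a result about these 4. These levels are scaled to library totals and count loops to all partners. The main test below counts only loops whose anchors were both called at both times. At 260 kb, 404 of 784 and 313 of 625 day 0 PETs entered it. On such loops, under library totals, the log2 fold change was -0.41 at 260 kb, and the median of all anchors tested was -0.51. None of the 4 was called in the main test, which differs from these levels in both loops and scaling.

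In the second window the anchors differed from one another. The 3 kb anchor, chr6:27092830-27121412, had 1879 and 2039 at day 0, 1329 and 1281 at day 3 and 347 and 250.3 with ARID1A. The 41 kb anchor, chr6:27131009-27147456, was higher at day 3, with 644 and 574 against 520.4 and 402 at day 0, and had 356 and 323 with ARID1A. The 149 kb anchor, chr6:27238856-27268778, had 179 and 221 at day 0, 461 and 491 at day 3 and 437 and 464 with ARID1A. At that anchor the day 3 libraries of both kinds lay above day 0, an order whose share over all anchors was not counted. The 149 kb anchor joins 1 day 0 anchor with 2 day 3 H3K27ac anchors. Among the latter, chr6:27245505-27251025 overlapped no day 0 anchor. The anchors at 32, 91 and 110 kb were called at day 3 and not at day 0. Those at 194 and 208 kb were called for ARID1A alone, and the one at 208 kb runs past the window's edge.

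The third window held the member anchor with the most PETs in all. The 72 kb anchor, chr6:27771845-27811500, had 3510.1 and 3739.6 at day 0, 2195 and 2140.2 at day 3 and 182 and 154 with ARID1A. At day 3 it ranked 10 of 17363 and 12 of 17377 anchors of the genome. The 147 kb anchor, chr6:27847213-27866332, had 1684 and 1755, then 1258 and 1213, and 20.7 and 36.4 with ARID1A. The 129 kb anchor, chr6:27828632-27838225, had 1376 and 1337, then 844 and 793, and was not called for ARID1A. The other 15 anchors stood between 38.5 and 1134 CPM wherever they were called. Just outside the windows, the anchor chr6:26302175-26307764 shared 46 and 47 PETs with the windows at day 0. The last anchor inside the first window, chr6:26267356-26288830, had 784 and 625 PETs to partners anywhere, a wider count that cannot be set against the former.

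**Figure D2:**
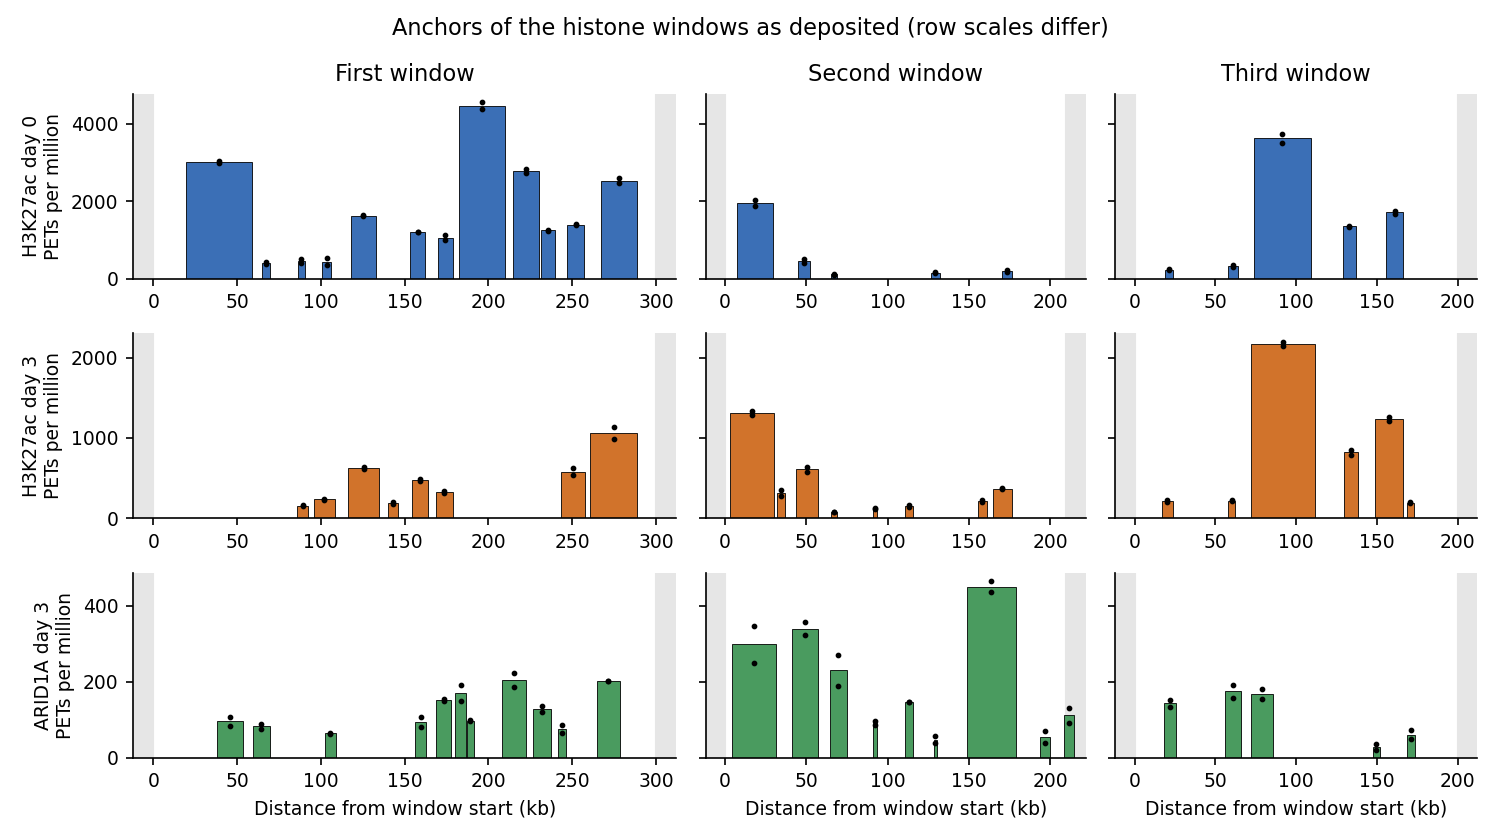
Deposited anchors of each group in the 3 windows, drawn to width along the distance from the window's start (kb); bar height is the mean of 2 libraries in CPM, points are the libraries, grey marks stretches beyond the window, and the height scale differs between rows. The tallest day 0 bar, at 4375 and 4560.1, has no counterpart in the day 3 row, whose tallest bar is in the third window.

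The test of each anchor asked whether its contacts changed relative to the typical anchor, and it counted only loops whose anchors were both called in both groups. Counts were fitted over the genome with edgeR's quasi-likelihood test under TMM scaling, which centres on the typical feature, and adjusted with Benjamini-Hochberg. From day 0 to day 3, 4 of the 16 histone anchors tested were called, or 25%, against 39.5% of all 6251 anchors tested. Of the 16, 3 rose (20.7% of all did) and 1 fell (18.8% of all did). The median log2 fold change was 0.066 over the 16 and -0.006 over all. Without day 0 replicate 1 the calls numbered 2.

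The anchors that rose were the 149 kb anchor of the second window by 1.66 ± 0.15 (log2, SE; adjusted p = 8.09e-22, edgeR), its 41 kb anchor by 0.74 ± 0.11 (adjusted p = 2.35e-09, edgeR) and the 96 kb anchor of the first window by 0.50 ± 0.15 (adjusted p = 0.00426, edgeR). The TMM-scaled CPM values behind the largest were 101 and 131 at day 0 and 367 and 357 at day 3. All 3 were called wider at day 3, by 2.89, 1.86 and 2.25 times, and the part of width in the change was not tested. The 149 kb anchor includes the day 3 anchor chr6:27245505-27251025, with 186 and 228 PETs to all partners, which overlapped no day 0 anchor. Part of its rise is thus set against a stretch without a day 0 value. The 169 kb anchor of the first window fell by 0.29 ± 0.11 (adjusted p = 0.03, edgeR). This call was lost with DESeq2 (adjusted p = 0.218), with thinned libraries and without each library in turn (edgeR adjusted p from 0.088 to 0.321), and the value was 0.014 with called widths within 1.5 times. The largest anchors did not pass: on the same loops the 72 kb anchor of the third window had 1903 and 2018 scaled CPM at day 0 and 1909 and 1813 at day 3 (log2 difference -0.07 ± 0.06, adjusted p = 0.321, edgeR). The 260 kb anchor of the first window had 946 and 853, then 1040.2 and 891 (0.10 ± 0.07, adjusted p = 0.325, edgeR).

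Scaling decided how these anchors read. With library totals in place of TMM the median of all anchors moved from -0.006 to -0.51, and 14.2% of all calls were increases in place of 52.4%. The histone anchors then had a median of -0.44, with 10 called lower and 1, the 149 kb anchor of the second window, called higher. In fixed bins of 50 kb, which do not follow called anchors, 9 of 12 bins were called, 3 higher and 6 lower, against 50.3% of all bins. The changes above are thus measured against the middle of all anchors tested.

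Loops between single anchors gave the same counts in finer detail. Of 1291 consensus loops with an end in a window, 199 passed the minimum of 4 PETs in 2 libraries and had anchors called at both times. A loop could pass that minimum through 1 group alone, and then its direction was largely fixed by entry. From day 0 to day 3, 24 of the 199 were called (12.1%, against 15.1% of the 16642 loops tested): 15 rose (8.3% of all did) and 9 fell (6.8% of all did). The median was 0.14 over the 199 and 0.06 over all. The calls numbered 3 without day 0 replicate 1, 10 without day 0 replicate 2, 5 without day 3 replicate 1 and 7 without day 3 replicate 2. With library totals 4 rose and 22 fell, with a median of -0.31 against -0.39 over all. DESeq2 called 0 of the 199 member loops (10 at an unadjusted p under 0.05), against 3.51% of all loops. It gave no adjusted p to 125 of the 199, which could not be called. Libraries thinned to the same number of PETs called 0 of 111 member loops (21 unadjusted), against 1.51% of all. None of the loop calls from day 0 to day 3 named below was therefore made under either.

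Inside single windows 36 loops were tested, of which 4 rose and 3 fell. The loop with the most PETs joined the 72 and 147 kb anchors of the third window. It held 181 and 180 PETs on day 0, then 439 and 466, which is 860.4 and 994 scaled CPM against 925 and 928 (log2 difference 0.01 ± 0.10, adjusted p = 0.981, edgeR). Its neighbour from the 72 kb to the 129 kb anchor had 160 and 140, then 272 and 305 PETs, and fell by 0.38 ± 0.12 (adjusted p = 0.0132, edgeR). The loop from the 129 kb to the 147 kb anchor had 92 and 65, then 213 and 198 PETs (0.07 ± 0.14, adjusted p = 0.8, edgeR).

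In the first window the 242 kb and 260 kb anchors were joined by 97 and 67 PETs on day 0, then 249 and 212 (0.17 ± 0.14, adjusted p = 0.437, edgeR). The 116 kb and 153 kb anchors were joined by 79 and 60, then 117 and 117, and this loop fell by 0.57 ± 0.16 (adjusted p = 0.00696, edgeR). The 180 kb anchor had the largest loops of the window at day 0 and, without a day 3 H3K27ac anchor, no test. It was joined to the 260 kb anchor by 304 and 236 PETs at day 0, and to the 20 kb anchor by 278 and 240. The same pairs had 28 and 32, and 7 and 18, PETs with ARID1A.

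Inside the second window all 3 pairs among the 3, 41 and 149 kb anchors rose. The 3 kb to 41 kb loop went from 32 and 21 to 104 and 96 PETs (log2 0.60 ± 0.22, adjusted p = 0.0443, edgeR). The 41 kb to 149 kb loop went from 4 and 5 to 36 and 45 (1.83 ± 0.43, adjusted p = 0.000424, edgeR), and the 3 kb to 149 kb loop from 6 and 5 to 43 and 45 (1.67 ± 0.40, adjusted p = 0.000593, edgeR). They share anchors and so are not independent, and the 149 kb anchor includes a day 3 anchor without a day 0 counterpart. With library totals the first of these 3 loops was no longer called (0.13, adjusted p = 0.716, edgeR).

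Contacts between windows joined anchors of different windows, 0.4 to 1.9 Mb apart, whether or not these anchors cover histone genes. They took 0.350% and 0.373% of all PETs at day 0, 0.166% and 0.150% at day 3 and 0.0283% and 0.0240% with ARID1A. First-to-third contacts made 0.181% and 0.187% at day 0, 0.05005% and 0.0436% at day 3 and 0.00322% and 0.00342% with ARID1A, so the 3 groups did not overlap. Second-to-third contacts, 0.0769% and 0.0899% at day 0 and 0.0799% and 0.0770% at day 3, overlapped (exact permutation p = 1, n = 2 against 2), and ARID1A had 0.0161% and 0.0167%. Touching an anchor without a day 3 counterpart were 52.6% and 50.6% of the day 0 PETs between windows, against 16.0% in both libraries for all PETs of loops spanning 0.4 to 1.9 Mb.

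For their span, the H3K27ac loops between windows were among the largest of the genome. Loops spanning 1.4 to 1.9 Mb numbered 3642 and 3316 at day 0. The 44 in each library that joined the first and the third window, 1.21% and 1.33% of these loops, carried 9.58% and 9.52% of their PETs. They averaged 12.4 and 10.8 PETs against 1.44 and 1.37 for the rest, and they took ranks 1 and 2 in both libraries, with 93 and 89 PETs at replicate 1 and 84 and 71 at replicate 2. Single-PET loops were 13.6% and 25.0% of them, against 77.7% and 80.5% of the rest. Of the 60 possible pairs of anchors, 73.3% were listed in each library, against 17.2% and 15.7% of the other pairs of that span.

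At day 3 the same band held 15025 and 14671 loops, and a first-to-third loop was still at rank 1 in both libraries. It joined the 260 kb anchor of the first window to the 72 kb anchor of the third, with 98 and 85 PETs, against 89 and 76 for the largest other loop. The first-to-third loops then carried 2.00% and 1.88% of the band's PETs. With ARID1A they carried 0.207% and 0.214%, the best rank was 26 and 87, and no such loop had more than 3 PETs. In the band from 0.4 to 0.81 Mb the largest second-to-third loop ranked 1 in replicate 1 and 2 in replicate 2 at both H3K27ac times. It reached 101 and 97 PETs in the day 0 libraries and 261 and 233 on day 3. The best ranks of second-to-third loops with ARID1A were 21 and 50. The largest first-to-second loop ranked 6 and 5 at day 0 and 5 and 9 at day 3 in the band from 0.79 to 1.3 Mb. These ranks describe members chosen with earlier results known and carry no test.

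**Figure D3:**
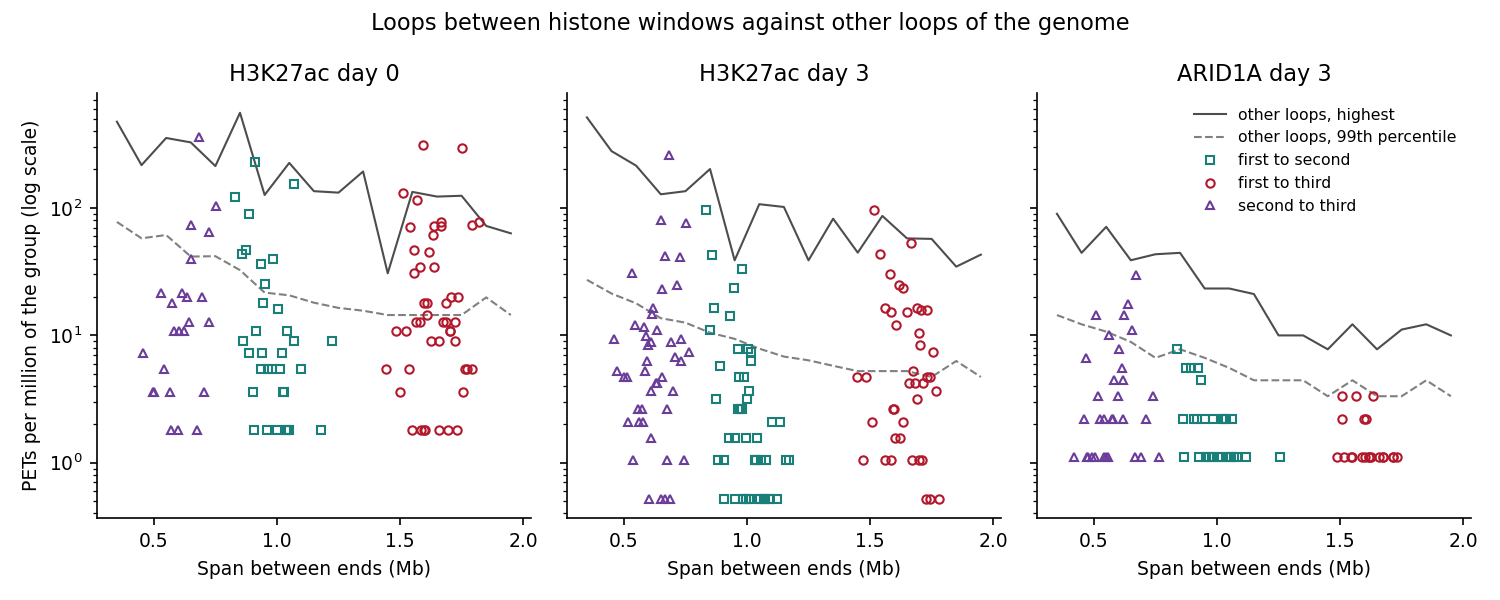
CPM in the group (log scale) against span (Mb) for loops between windows, as symbols, with the highest value and the 99th percentile of all other loops in steps of 0.1 Mb as lines. Between 1.5 and 1.6 Mb the highest first-to-third symbol lies above the highest other loop at day 0 (312 against 133) and at day 3 (95.7 against 86.3), and all ARID1A symbols of that pair are at 3.32 or less.

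Loop by loop, the largest contacts between windows that could be tested did not pass the test. Of 46 tested from day 0 to day 3, 3 rose and 1 fell. The 3 kb anchor of the second window and the 72 kb anchor of the third were joined by 101 and 97 PETs before doxycycline and by 261 and 233 after, or 480.1 and 536 scaled CPM against 549.8 and 464 (-0.00 ± 0.13, adjusted p = 0.999, edgeR). The first-to-third loop from 260 kb to 72 kb had 39 and 34, then 98 and 85 PETs (0.01 ± 0.20, adjusted p = 0.99, edgeR). The first-to-second loop from 260 kb to 3 kb had 32 and 35, then 100 and 83 (0.13 ± 0.21, adjusted p = 0.733, edgeR). The second-to-third loop from 3 kb to 147 kb had 33 and 24, then 74 and 70 (0.02 ± 0.23, adjusted p = 0.972, edgeR), and that from 41 kb to 72 kb had 18 and 23, then 74 and 80 (0.59 ± 0.25, adjusted p = 0.0871, edgeR). A value that missed the threshold does not show that the contact was the same. With library totals the loop from 3 kb to 72 kb was called lower (-0.46, adjusted p = 0.004, edgeR).

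The loops between windows that rose all ended at the 149 kb anchor of the second window. Its loop to the 72 kb anchor of the third went from 7 and 5 to 43 and 39 PETs (1.44 ± 0.40, adjusted p = 0.00396, edgeR), that to the 147 kb anchor from 0 and 1 to 10 and 13 (adjusted p = 0.0267, edgeR), and that to the 260 kb anchor of the first from 0 and 0 to 8 and 6 (adjusted p = 0.02, edgeR). With library totals only the last of these was still called (adjusted p = 0.038, edgeR), and the others were at adjusted p = 0.0688 and 0.0675 (edgeR). The loops to the 147 kb and 260 kb anchors met the minimum of 4 PETs in 2 libraries through day 3 alone, so their direction is a description. The 149 kb anchor includes a day 3 anchor that overlapped no day 0 anchor. That day 3 anchor supplied 23, 7 and 5 of the day 3 PETs of the 3 loops that rose, in the order given. The loop from the 153 kb anchor of the first window to the 72 kb anchor of the third, with 17 and 17, then 23 and 22 PETs, fell by 0.91 ± 0.34 (adjusted p = 0.0478, edgeR). The 180 kb anchor of the first window, without a day 3 anchor, had 136 and 127 PETs to the 72 kb anchor of the third window at day 0 and 106 and 97 to the 3 kb anchor of the second.

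**Figure D4:**
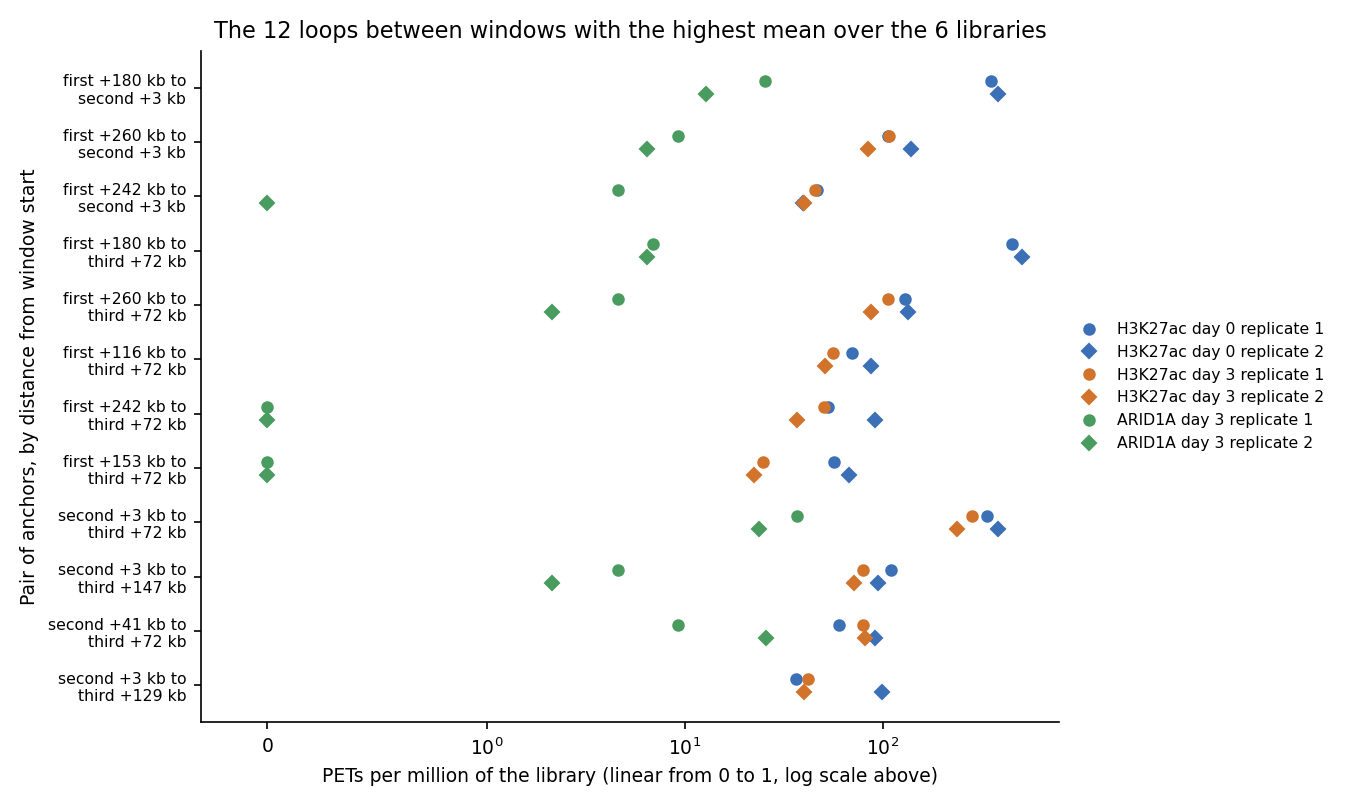
CPM in the library (linear from 0 to 1, log scale above) for the 12 loops between windows with the highest mean over the 6 libraries; colours are groups, circles and diamonds are replicates, and no point is drawn where an anchor was not called in the group. In the loops drawn for all groups ARID1A lies below both H3K27ac times.

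Contacts that left the windows took 0.374% and 0.377% of PETs at day 0, 0.284% and 0.275% at day 3 and 0.149% and 0.145% with ARID1A. At day 0, 51.9% and 55.7% of these PETs reached the stretch between the first and the second window, where RefSeq places the butyrophilin and tRNA genes. At day 3 that stretch took 35.4% and 34.6%, and the stretch between the second and the third window a nearly equal 35.6% and 36.3%. With ARID1A the latter took 59.3% and 60.0%. The outside anchor with the most PETs was chr6:26530949-26540943 at day 0, with 137 and 120, and chr6:26530949-26543939 at day 3, with 186 and 213. With ARID1A it was chr6:27489723-27523334, with 103 and 111. From day 0 to day 3, 117 outward loops were tested, of which 8 rose and 5 fell.

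Over all libraries the outward loops with the most PETs left the 260 kb anchor of the first window; at day 0 alone, the 180 kb anchor held more, with 53 and 62 to chr6:26519355-26545504. Those of the 260 kb anchor held 27 and 20, then 61 and 61 PETs to chr6:26302175-26316196 (0.06 ± 0.25, adjusted p = 0.909, edgeR) and 33 and 23, then 50 and 58 to chr6:26519355-26545504 (-0.37 ± 0.24, adjusted p = 0.323, edgeR). All 5 that fell left the third window for anchors above it; the clearest, from the 147 kb anchor to chr6:28315894-28325256, went from 6 and 9 to 1 and 3 PETs (-3.12 ± 0.70, adjusted p = 0.000222, edgeR). Of the 8 that rose, 4 left the 41 kb or 149 kb anchor of the second window for chr6:27460522-27476639 or chr6:27627576-27643937. The loop from 149 kb to chr6:27460522-27476639 had 0 and 0 PETs in the day 0 libraries and 21 and 17 on day 3 (adjusted p = 4.85e-05, edgeR). This loop met the minimum of 4 PETs in 2 libraries through day 3 alone, and the loop to chr6:28315894-28325256 through day 0 alone. The direction of both was thus largely fixed by entry into the test, and their values are a description.

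Set against H3K27ac at day 3, ARID1A contacts were lower at the anchors called in the first and the third window and mixed in the second. Of 16 anchors called for both, 12 were called (75%, against 64% of all 11052 tested): 9 were lower (32.5% of all were) and 3 higher (31.5% of all were). The median was -1.14 over the 16 and -0.05 over all. In the first window all 5 tested were lower, by 1.19 to 3.21 on the log2 scale. In the third, 3 of 5 were lower, and in the second 1 of 6 was lower and 3 were higher. With library totals the median of all anchors moved to -0.66, 23.9% of calls were increases in place of 49.2%, and 14 of the 16 were lower and 1 higher.

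The 147 kb and 72 kb anchors of the third window share the loop by which the region was selected, so their values are given as a description, without a test, and both are among the 9 counted as lower. The 147 kb anchor had 684 and 654 scaled CPM for H3K27ac and 15.5 and 28.6 for ARID1A, a log2 difference of -4.90. That loop supplied 439 of its 875 and 466 of its 873 H3K27ac PETs in the fit. The 72 kb anchor had 1201 and 1178 against 165 and 143, a log2 difference of -2.95. The ARID1A anchors covered less of these stretches, 4498 of 19119 bp and 13664 of 39655 bp, and the called widths differed by 3.84 and 2.87 times. Among the 7 anchors whose loops could be kept with called widths within 1.5 times of each other, 1 was called, lower, against 44.1% of all anchors so tested; how far width enters the other values was not tested. In fixed bins of 50 kb, where called widths play no part in the borders, 12 of 12 were called, 10 lower and 2 higher, against 72.8% of all bins.

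In the first window the 242 kb anchor had 406 and 352 against 28.4 and 52.5 (-3.21 ± 0.18, adjusted p = 4.01e-70, edgeR) and the 260 kb anchor 707 and 611 against 132 and 114 (-2.42 ± 0.12, adjusted p = 6.85e-90, edgeR). The 169 kb anchor, whose widths differed by 1.11 times, had 163 and 193 against 82.5 and 73.9 (-1.19 ± 0.18, adjusted p = 1.5e-10, edgeR). In the second window the 3 kb anchor, of nearly equal width in both, had 810.2 and 756 against 309 and 222 (-1.57 ± 0.09, adjusted p = 6.77e-61, edgeR). The 169 kb and 3 kb anchors were among 4 called anchors tested again on loops with called widths within 1.5 times at both ends. Of these 4, only 1 kept its call, so a near-equal width of the anchor itself does not free a call from the widths of its partners. The 64 kb anchor, chr6:27154375-27165170, had 55.5 and 55.5 against 196 and 277 and was higher for ARID1A by 2.10 ± 0.16 (adjusted p = 9.82e-36, edgeR), with the ARID1A anchor 2.97 times as wide. The 149 kb anchor was higher by 0.38 ± 0.10 (adjusted p = 0.000295, edgeR) and the 110 kb anchor by 0.44 ± 0.17 (adjusted p = 0.0175, edgeR). With library totals both turned, to -0.23 and -0.17. The 41 kb anchor (-0.22 ± 0.10, adjusted p = 0.0528, edgeR) and the 17 kb anchor of the third window (-0.02 ± 0.16, adjusted p = 0.934, edgeR) did not pass.

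**Figure D5:**
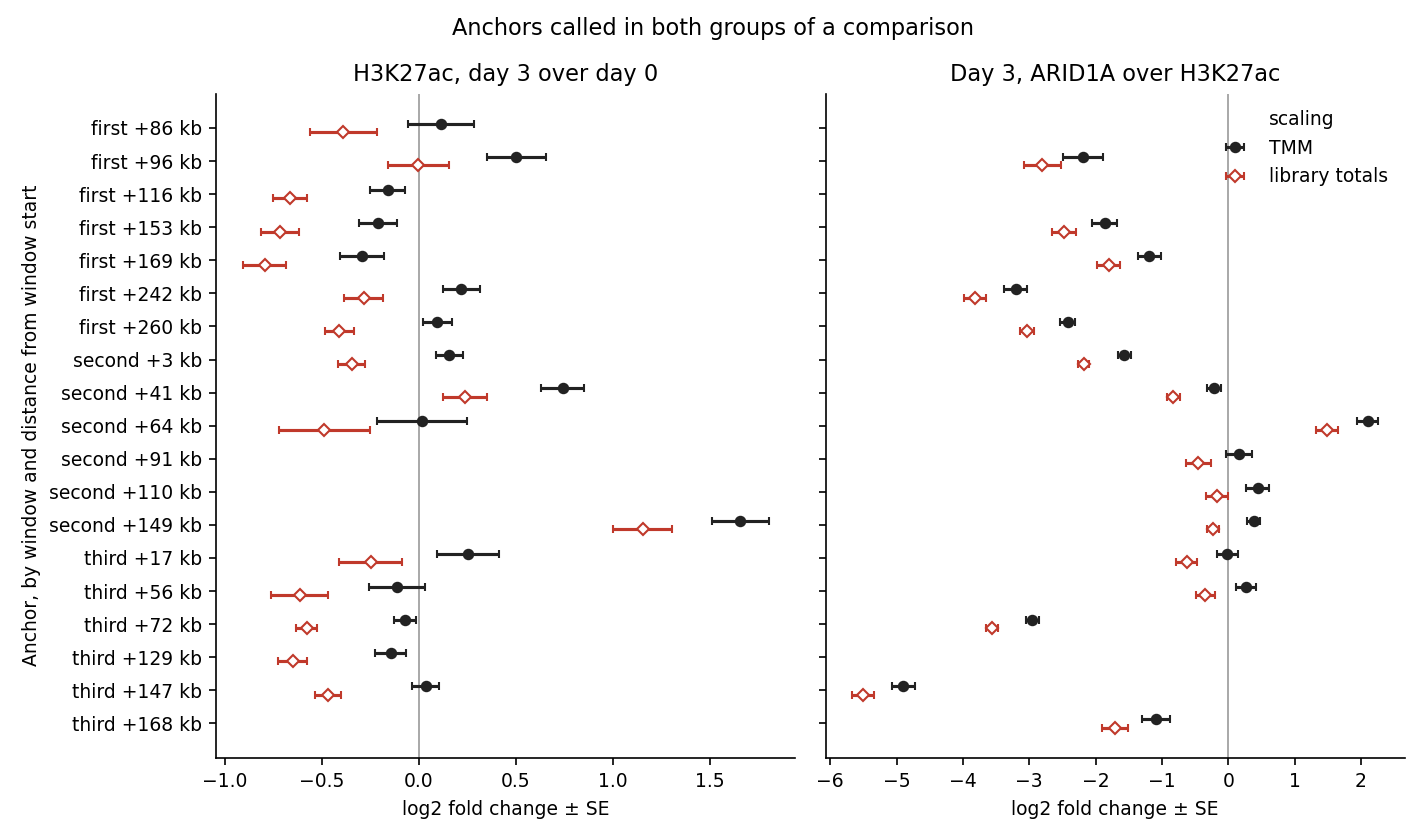
Log2 fold change with SE of each histone anchor called in both groups, for day 3 over day 0 (left) and ARID1A over H3K27ac (right), under TMM (filled circles) and library totals (open diamonds). On the left most circles lie near 0 and the 149 kb anchor of the second window stands at 1.66; on the right the 147 kb anchor of the third window stands at -4.90.

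Member loops were more often lower than higher for ARID1A. Of 194 member loops tested, 92 were called (47.4%, against 33.3% of the 28338 tested): 75 were lower (18.7% of all were) and 17 higher (14.6% of all were). The loop by which the region was selected is among the 75, so the share of the members is partly a description. The median was -1.56 over the 194 and -0.49 over all. With any 1 library left out fewer member loops were called, and the share called lay closer to that of all loops. Without H3K27ac replicate 1 or 2, 69 and 70 member loops were tested, with medians of -0.19 and -0.08 against 0.004 and 0.03 over all. Without ARID1A replicate 1 or 2, 187 and 188 were tested, with medians of -2.21 and -1.64 against -0.54 and -0.53. Among loops whose called widths were within 1.5 times of each other, 35 member loops were tested and 3 were called, all lower, which is 8.57% against 15.9% of all loops so tested. Of 33 loops between windows 20 were lower and the other 13 did not pass. Here too a loop could meet the minimum of PETs through 1 group alone, and then its direction was largely fixed by entry. All 9 first-to-third loops tested were lower, but each of these 9 met the minimum through H3K27ac alone. Their direction is therefore a description. How many of the other loops called lower entered in this way was not counted.

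The loop from 72 kb to 147 kb of the third window, named in the choice of this region, had 439 and 466 PETs for H3K27ac and 2 and 1 for ARID1A. That is a ratio of 0.0104, scaled for depth, given as a description. The second-to-third loop from 3 kb to 72 kb had 261 and 233 against 16 and 11 PETs (-2.53 ± 0.24, adjusted p = 1.62e-24, edgeR). The first-to-second loop from 260 kb to 3 kb had 100 and 83 against 4 and 3 (-3.03 ± 0.38, adjusted p = 3.62e-13, edgeR). The first-to-third loop from 260 kb to 72 kb had 98 and 85 against 2 and 1, a ratio of 0.0517 (exact 95% interval 0.0106 to 0.153, which covers counting error only). Among the other large loops between windows, the second-to-third loop from 41 kb to 72 kb had 74 and 80 against 4 and 12 (-1.60 ± 0.32, adjusted p = 1.15e-05, edgeR). The loops from 3 kb to 147 kb, with 74 and 70 against 2 and 1, and from 149 kb to 72 kb, with 43 and 39 against 1 and 1, had ratios of 0.0657 (interval 0.0134 to 0.196) and 0.0769 (interval 0.00916 to 0.287). These loops, with those from 3 kb to 72 kb and from 260 kb, had fewer PETs in each ARID1A library than in each H3K27ac library. Those are raw counts, and the ARID1A libraries held fewer PETs in total. The share of all loops with that order was not counted, so the order is not a result about these loops. The loop from 242 kb to 260 kb in the first window had 249 and 212 against 1 and 12 PETs (-3.48 ± 0.29, adjusted p = 1.13e-31, edgeR), so the ARID1A libraries differed between themselves. In the third window the 147 kb to 168 kb loop had 59 and 52 against 0 and 1, a ratio of 0.0284 (interval 0.000713 to 0.162). In the first, the 153 kb to 169 kb loop had 43 and 69 against 9 and 12 and did not pass (-0.76 ± 0.32, adjusted p = 0.0545, edgeR).

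In the second window the 3 kb to 41 kb loop had 104 and 96 against 20 and 10 PETs and was lower (-1.08 ± 0.26, adjusted p = 0.000276, edgeR). The 41 kb to 149 kb loop did not pass: 36 and 45 PETs for H3K27ac stood against 13 and 19 for ARID1A (0.31 ± 0.30, adjusted p = 0.431, edgeR). Inside that window 4 loops were higher and 1 lower, and each of the 4 ended at the 64 kb anchor. The largest of the 4, from 41 kb to 64 kb, had 14 and 21 against 10 and 26 PETs (1.69 ± 0.35, adjusted p = 2.06e-05, edgeR). Of the 13 outward loops that were higher, 11 left the second window. The one with the most PETs ran from 149 kb to chr6:27489723-27523334, in the stretch between the second and the third window, with 17 and 8 PETs for H3K27ac and 27 and 24 for ARID1A (2.67 ± 0.34, adjusted p = 1.63e-13, edgeR). Of the 129 outward loops tested 40 were lower, among them those from the 260 kb anchor of the first window to chr6:26302175-26316196 (61 and 61 against 10 and 3 PETs) and to chr6:26519355-26545504 (50 and 58 against 4 and 3). Over the genome ARID1A loops held fewer PETs, 2.76 and 2.85 per loop against 5.74 and 6.06 for H3K27ac. With all libraries thinned to the same number of PETs, 30 of 80 member loops were called, 29 lower and 1 higher, against 23.2% of all loops, of which 1359 were higher and 1110 lower.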

How the data were processed

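HiChIP loops of 6 libraries were used, as loop lists the authors deposited: 2 anchors, a count of PETs and a value named here as a p-value per loop. Per the submitters' processing notes HiC-Pro, Bowtie2 and hg19 were used; the loop caller is not given in the sources used here. The deposited counts are whole numbers from 1 upward. The deposited p-value was used only as a filter in an alternative; whether it is a p or a q value, and whether coordinates count from 0 or 1, is not stated in the files, and coordinates are printed as deposited.

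Anchors of all libraries overlapping by at least 1 bp were merged. PETs with both ends in the same consensus anchor were left out of anchor and loop counts, while library totals, and so CPM, include them. They made 13.7% and 13.3% of PETs in the day 0 libraries, 6.30% and 6.26% in those of day 3 H3K27ac and 3.55% and 3.53% for ARID1A. Anchor counts sum the remaining loops of an anchor, so each of their PETs counts at both ends. Fits took loops with at least 4, or anchors with at least 10, PETs in 2 libraries, with both anchors called in both groups, over the genome: edgeR 4.0.16 (R 4.3.3) quasi-likelihood test, TMM scaling, Benjamini-Hochberg adjusted p under 0.05. Shares that overlapped between groups were compared with an exact two-sided permutation test. The fit was tested on simulated data. Intervals cover counting error only, and PETs carry no molecular identifiers. DESeq2 1.42.0 and other settings were alternatives. Tables were made with Python 3.11.15 and pandas 2.3.3.

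Groups come from the labels. The members and lists were chosen with earlier results of these data known. By rule, values were given for the 12 anchors with the most PETs and, per comparison, up to 6 loops with the most PETs inside windows, between them and to outside; other named anchors and loops, such as those called, were chosen after their values were seen. Replicate numbers were not treated as pairs: same-numbered libraries correlated at -0.00041 to 0.013 in their deviations from group means.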

Additional observations from a re-analysis of the deposited data

How the results depend on the processing

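The shares of PETs for all members and for contacts between windows, the 2 that were recomputed, kept their direction under each alternative run. Leaving out 1 library in turn moved the day 3 minus day 0 difference for all members between -1.02 and -0.99 percentage points and for contacts between windows between -0.22 and -0.19; for ARID1A minus H3K27ac the ranges were -0.48 to -0.45 and -0.14 to -0.12. Counts of calls moved more. For anchors from day 0 to day 3 (4 called), library totals gave 11, DESeq2 2, the filter on the deposited value at 0.01 or less 8, fixed bins 9, and leaving out 1 library 2 to 6. For loops from day 0 to day 3 (24 called), DESeq2 gave 0 (10 at an unadjusted p under 0.05), thinned libraries 0 (21 unadjusted), fixed bins 43, called widths within 1.5 times 4, anchors merged over the 4 libraries compared 13, and leaving out 1 library 3 to 10. For ARID1A against H3K27ac, called widths within 1.5 times left 1 anchor called of 7, against 12 of 16, and leaving out 1 library gave 10 to 12. For loops (92 called), DESeq2 gave 44, no minimum of PETs 0 (135 unadjusted by edgeR), thinned libraries 30, called widths 3, and leaving out 1 library 18 to 35. With 1 library left in a group, it was assumed to vary like the others.

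With the replicate block, the calls were 4 and 12 for anchors and 16 and 57 for loops. The numbers share only a number and were not shown to pair the libraries. The merge over 4 libraries and edgeR's newer quasi-likelihood method, which called 4, 16, 12 and 68, were chosen after seeing the data.

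Directions turned mostly with library totals. From day 0 to day 3 the 72 to 147 kb and 129 to 147 kb loops of the third window went to -0.46 and -0.39, and the anchors at 96, 242 and 260 kb of the first window, 3 kb of the second and 147 kb of the third to -0.0025, -0.29, -0.41, -0.35 and -0.47. For ARID1A the anchors at 91, 110 and 149 kb of the second window and 56 kb of the third went to -0.45, -0.17, -0.23 and -0.35. The filter on the deposited value turned the 3 kb anchor of the second window to -0.45 and the 147 kb anchor of the third to -0.59, and called widths within 1.5 times turned the 169 kb anchor of the first to 0.014. The cause was not tested. How far depth enters the values of loops with a few PETs was not tested separately.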
